A study of Mus musculus with 16 samples.

Results

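The cytosolic ribosomal protein genes encode the proteins of the large and small subunits of the ribosome, the machine that makes all cytosolic protein. Members were the protein-coding genes whose symbol is Rpl or Rps followed by a number and at most a closing a, x or l, together with Rpsa, Rplp0, Rplp1 and Rplp2. The rule found 81 genes among 21887 protein-coding genes of the autosomes, X and Y, of which 50 belong to the large subunit and 31 to the small subunit. They were spread over 19 chromosomes, 14 of them on chromosome 7.

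Muscle stem cells (satellite cells) from skeletal muscle of C57BL/6 mice had been profiled by ChIPmentation, in which the antibody-bound chromatin is tagged with sequencing adapters by a transposase. Cells in quiescence (QSC) and after activation (ASC) were each profiled for H3K4me3 and for H3K27me3. The 16 libraries comprised 2 immunoprecipitated replicates of each mark in each state, each with an input library. No genetic change or treatment is named in the labels, nor the age of the mice, the way the cells were isolated or activated, or whether replicates came from separate animals. The labels name a single peak list for both replicates, so the spread between replicates could not be measured, and every QSC to ASC difference below is a description without a test. Read depth behind the lists is unknown.

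Ribosomal protein genes are transcribed at high rates in nearly all cells, and their messages typically begin with a C followed by a run of pyrimidines, the terminal oligopyrimidine tract through which the mTOR pathway controls their translation. Trimethylation of H3K4 marks the nucleosomes just after the start of active or poised genes. Trimethylation of H3K27 is laid down by the Polycomb complex PRC2 at silent developmental genes. Quiescent satellite cells are small cells with little cytoplasm, and activation brings growth and ribosome production before division.

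Start sequences are shown for 5 marked members and for 3 paralogs without H3K4me3, as examples of listed starts with and without a pyrimidine run in both kinds of gene. The RefSeq table of starts (GRCm38.p6, whose coordinates are those of mm10) held 61 of the 81 members. Each line runs 5′ to 3′ from 45 bases before the first listed start to the first 15 bases of the transcript, and capitals mark a C within 5 bases of the start with at least 4 pyrimidines (C or T) behind it.
Rps10 (chr17:27635230-27635289, minus strand): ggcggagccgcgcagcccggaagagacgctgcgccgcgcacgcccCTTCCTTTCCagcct
Rps18 (chr17:33955651-33955710, minus strand): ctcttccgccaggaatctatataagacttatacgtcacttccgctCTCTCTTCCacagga
Rpl12 (chr2:32961667-32961726, plus strand): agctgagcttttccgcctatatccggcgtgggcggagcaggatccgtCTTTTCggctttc
Rpl10a (chr17:28328426-28328485, plus strand): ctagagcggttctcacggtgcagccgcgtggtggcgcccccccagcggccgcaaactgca
Rps4x (chrX:102189377-102189436, minus strand): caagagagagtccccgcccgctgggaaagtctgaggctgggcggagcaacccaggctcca
Rpl32l (chr10:20208394-20208453, plus strand): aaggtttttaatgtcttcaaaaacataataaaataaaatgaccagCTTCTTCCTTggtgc
Rpl3l (chr17:24727781-24727840, plus strand): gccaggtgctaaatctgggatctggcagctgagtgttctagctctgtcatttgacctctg
Rpl10l (chr12:66284387-66284446, minus strand): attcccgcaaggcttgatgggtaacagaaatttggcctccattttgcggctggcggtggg

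The run began exactly at a listed start in 14 of 61 members (23.0%), Rps6, Rps10, Rps18, Rplp2 and Rpl35 among them, and in 467 of 17492 coding genes with a listed start (2.67%). Read anywhere within 5 bases of the start, on the transcribed strand only, it was present in 29 members (47.5%) against 21.5% of all these genes. How exactly a listed start marks the first transcribed base was not tested. A missing run at a listed start therefore does not show that the messages lack the tract. Rpl32l, a short gene without H3K4me3, held a run of 10 bases at its start. Over the 300 bases from 250 before to 50 after the start, the members' median was 21 CpG dinucleotides, between the 15 of all genes and the 23 of genes with H3K4me3 in both lists.

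Nearly all ribosomal protein genes carried H3K4me3 in both states, and the exceptions were the same paralogs in each. A gene was called when a narrow peak lay within 1 kb of a listed start, or of either end of the gene record for the 20 members without a listed start. Called members numbered 77 of 81 in QSC and 77 of 81 in ASC, against a background of 54.4% and 57.0% of all coding genes. These were the same 77 genes in both lists, where 53.7% of coding genes were called in both, 0.736% in QSC only and 3.29% in ASC only. All 31 members of the small subunit were called, as were 46 of 50 of the large subunit.

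The 4 members without a call were Rpl3l, Rpl10l, Rpl39l and Rpl32l, and 42.3% of all coding genes were called in neither list. Rpl3l replaces Rpl3 in the ribosomes of mature striated muscle, and Rpl10l and Rpl39l are testis-expressed relatives of the X-linked Rpl10 and Rpl39. At Rpl10l the nearest narrow H3K4me3 peak lay 1111552 bp from the start in QSC and 937030 bp in ASC. At Rpl39l these distances were 142041 and 22412 bp, and at Rpl32l 58350 and 58068 bp. Rpl3l was the nearest to a peak, at 3067 bp in QSC and 2980 bp in ASC. Another relative, Rps27l, a target of p53, was called in both lists with domains of 1764 and 2689 bp.

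The peaks at ribosomal protein genes stood near the top of each list. Rank here is the percentile of the authors' fold enrichment over background among all peaks of the same list, taken for the strongest peak at the start, and ranks are read within a list only. The median over the 77 members was 92.0 in QSC and 97.4 in ASC, where the medians over all called genes were 61.2 and 64.6. In QSC, 44 members (57.1%) lay at or above the 90th percentile, as did 13.7% of called genes. In ASC, 69 members (89.6%) did so, against 14.8%.

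**Figure D1:**
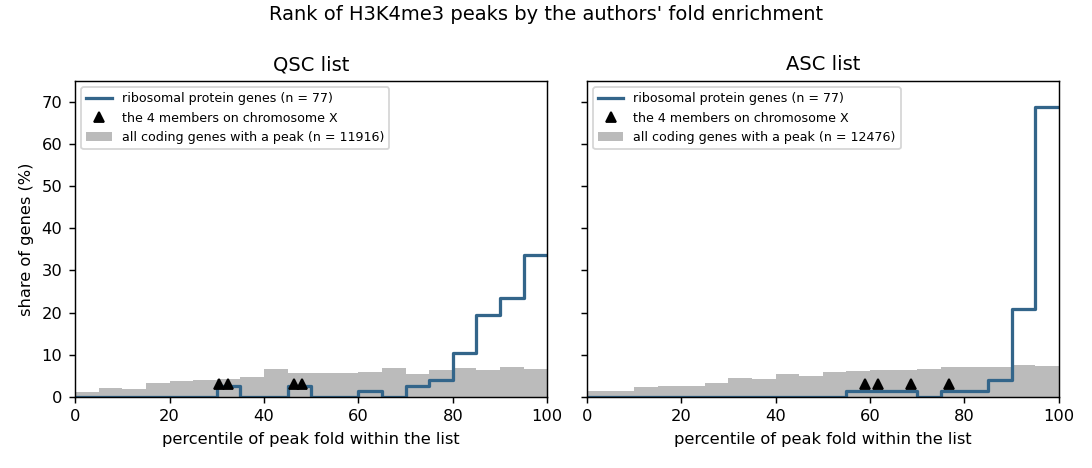
Share of genes (%) by the percentile of their strongest H3K4me3 peak within its list, in bins of 5 percentiles, for QSC (left) and ASC (right); grey bars are all coding genes with a peak, the blue line the 77 ribosomal protein genes, and triangles, placed at an arbitrary height, the 4 members on chromosome X. The blue line piles up above the 80th percentile in QSC and above the 90th in ASC, and all 4 triangles lie below the 50th percentile in QSC.

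Among the highest in QSC were Rpl10a (rank 99.7), Rpl12, which sits at the base of the ribosomal stalk (99.6), Rps19 (99.4), Rps16 (99.04) and, tied at 98.997, Rpl32 and Rpl13a. In ASC they were Rpl12 (99.96), Rpl27a (99.9), Rps10 (99.8), Rpl8 (99.8) and Rps16 (99.6). Only Rpl12 and Rps16 were in both of these sets. Rpl12 had a fold of 27.3 in QSC and 52.9 in ASC, and Rps16 of 25.4 and 45.7, and folds of separate lists are not compared as a change.

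The 4 lowest ranks in each list were those of the 4 X-linked members. Rpl36a had a rank of 30.5 in QSC and 58.9 in ASC, and Rpl10, a late-joining protein of the large subunit, 32.3 and 61.6. For Rpl39, a short protein of the peptide exit tunnel, the ranks were 46.5 and 76.8, and for Rps4x 48.0 and 68.7. The lowest autosomal members lay above all of them, at 64.2 for Rpl37a in QSC and 83.1 for Rpl24 in ASC. Coding genes of chromosome X had low ranks as a class, with medians of 32.3 over 353 called genes in QSC and 41.1 over 391 in ASC, against 62.7 and 65.4 on the autosomes. In ASC each X-linked member ranked above the median of its chromosome, and in QSC Rpl36a lay below it and Rpl10 at it.

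H3K4me3 domains in the narrow lists were longer in ASC than in QSC at each of the 77 called ribosomal protein genes. Narrow peaks no more than 1 kb apart were joined into a domain, and a gene took the length of the longest domain touching its window. In QSC the median over 77 members was 2318 bp (range 1034 to 6326), and in ASC it was 4131 bp (range 2162 to 10623). All called coding genes had medians of 1809 and 2655 bp. The domain was longer in ASC at 77 of 77 members, against 90.8% of the 11755 genes called in both lists, and at least 2 times as long at 27 members (35.1%), against 13.6%. The median log2 ratio of length, ASC over QSC, was 0.91 for the members and 0.54 for all genes. In the broad H3K4me3 lists the domain was longer in ASC at 60 members and shorter at 17. The members' median log2 ratio was then 0.48 against 0.18 for all genes, and Rps18, Rps2, Rpl12, Rpl41 and Rplp2 were among the 17. The broad lists covered 254861979 bp in QSC and 88761891 bp in ASC, with a median -log10 q per peak of 0 and 0.76.

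Genes like the members in rank or in length were read in the same way. Coding genes with a QSC rank within the members' interquartile range (86.3 to 97.0, 1758 genes, members left out) had a median log2 ratio of 0.53. Genes with a record within the interquartile range of the members' lengths (2409 to 4451 bp) had 0.50, over 715 genes. The authors' lists differ in strength as a whole, with a median fold of 10.4 per narrow peak in QSC and 16.3 in ASC and covered totals of 24421313 and 35427498 bp, and the part of this in the longer domains was not tested. At Rpl36 the QSC and ASC domains lay at opposite ends of the record, so its lengths (2343 and 3258 bp) are not a change at one place. Without Rpl36 the domain was longer in ASC at 76 of 76 members. Members kept much of their order, with a Spearman correlation of 0.68 between QSC and ASC lengths over 77 members and 0.78 over all genes, where the genes of a list share its libraries.

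**Figure D2:**
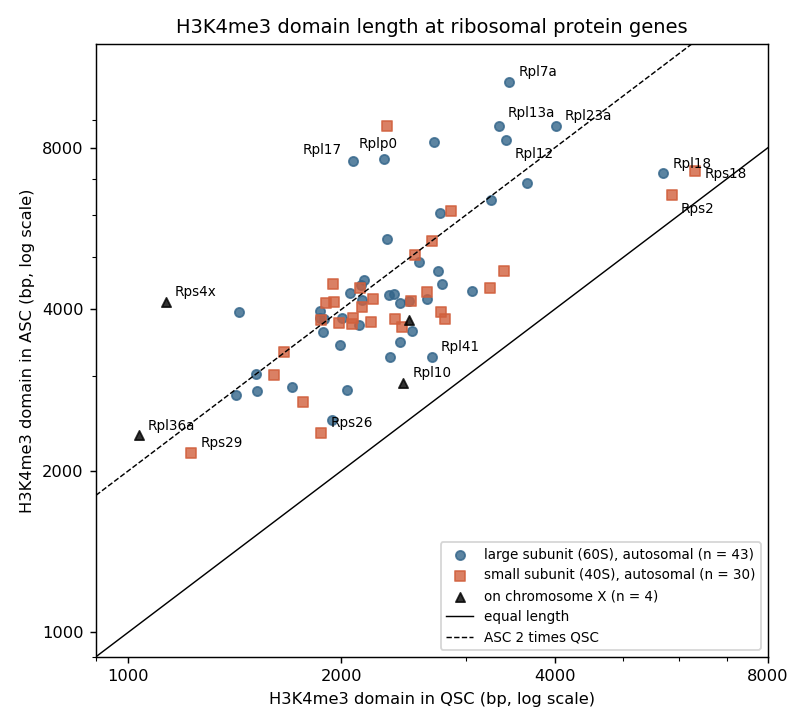
Length of the H3K4me3 domain (bp, log scales) at each of the 77 called ribosomal protein genes in QSC (horizontal) and ASC (vertical), with circles for large-subunit genes, squares for small-subunit genes and triangles for chromosome X; the solid line marks equal length and the dashed line a length in ASC 2 times that in QSC. Every point lies above the solid line and 27 lie on or above the dashed line.

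Large log2 ratios were found at Rps4x (1.87), Rpl17 (1.86), Rplp0 (1.73) and Rpl7a (1.62). The domain at Rps4x had 1129 bp in QSC (chrX:102188090-102189218) and 4131 bp in ASC (chrX:102185384-102189514), with no other coding start inside it. The domain of Rplp0, the stalk protein that holds the acidic proteins, had 2298 bp in QSC and 7642 bp in ASC, where it reached a start of Gcn1, the activator of the amino acid sensor kinase Gcn2. Rpl7a had 3452 and 10623 bp, the longest of any member in ASC (chr2:26908551-26919173), and this domain held starts of Med22, Surf1 and Surf2. For Rpl17 the lengths were 2080 and 7564 bp. These ratios depended on how peaks were called and joined. In the broad lists they were 0.54 at Rps4x, 0.021 at Rpl17, 0.19 at Rplp0 and 0.015 at Rpl7a. With peaks joined over 3 kb they were 0.17 at Rplp0 and 0.35 at Rpl7a, and without joining 1.18 at Rpl17.

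The smallest ratios were those of Rps2 (0.16), Rps18 (0.20), Rpl10 (0.25), Rpl41 (0.28) and Rps26 (0.33). For Rps2 and Rps18 this rests on the joining of peaks, since without it their ratios were 0.97 and 1.03, above the members' median of 0.93. The longest QSC domains were at Rps18 (6326 bp), Rps2 (5854 bp) and Rpl18 (5697 bp), followed by Rpl23a and Rpl7 (3661 bp). In ASC those at Rps18, Rps2 and Rpl18 had 7251, 6524 and 7181 bp. Each of these held starts of neighbours in both lists, Ndufb10 at Rps2, B3galt4 and Vps52 at Rps18, and Sphk2 at Rpl18. The shortest ASC domains lay at Rps29 (2162 bp), Rpl36a (2331 bp), Rps26 (2356 bp), Rpl29 (2486 bp) and Rps27l. In QSC the shortest were at Rpl36a (1034 bp), Rps4x (1129 bp), Rps29 (1228 bp), Rpl27 (1421 bp) and Rpl6 (1432 bp).

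Some domains ran over a neighbouring gene. A domain held a start of another coding gene at 16 members in QSC (20.8%) and 25 in ASC (32.5%), against 19.8% and 20.4% of all called genes. Among the 52 members whose domains held no other start in either list, all 52 had the longer domain in ASC, with medians of 2064 and 3853.5 bp and a median log2 ratio of 0.92. At Rpl23a, which has no listed start, the QSC domain of 4016 bp lay outside the gene record over Nek8 and Tlcd1, and the ASC domain of 8807 bp covered the gene as well.

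The mark lay mostly on the transcribed side of the start. Position was read at the 48 called members with a single listed start. The summit of the strongest peak was downstream of the start in 48 of 48 members in both lists, against 83.7% of genes in QSC and 85.7% in ASC read the same way. Median summit distances were 468.5 bp (QSC) and 673 bp (ASC), where all genes had 284 and 332 bp. Domains reached a median of 1771 bp downstream and 548.5 bp upstream in QSC, and 3290.5 and 842.5 bp in ASC.

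More of the added length in ASC lay on the downstream side at 43 of 48 members (89.6%), against 71.4% of genes. In ASC the domain reached a median of 1370.5 bp further downstream and 298.5 bp further upstream at the members, and 567 and 219.5 bp at all genes. The ASC edges at Rplp0 lay 5142 bp further downstream and 202 bp further upstream, and at Rpl12 3994 and 876 bp. The exceptions were Rpl35, where the ASC domain reached 3947 bp further upstream over Arpc5l, and Rps18, Rps2, Rps28 and Rps6.

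Ribosomal protein genes are short, with a median record of 3175 bp against 17169 bp for all coding genes, and in ASC the mark commonly spanned the gene. The median share of the record inside the domain was 53.7% in QSC and 94.7% in ASC. Genes called with records of like length (the interquartile range above) had medians of 35.1% and 50.4%. The whole record was covered at 8 members in QSC, which were Rpl12, Rpl41, Rplp1, Rps15, Rps18, Rps21, Rps27 and Rps28, and at 34 in ASC, against 179 of 11916 and 363 of 12476 called genes. The position of the downstream edge minus the record's end had a QSC median of -1253.5 bp and an ASC median of -90.5 bp. The edge was past the end at 7 and 23 of 48 members, against 159 and 301 of 7568 genes.

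**Figure D3:**
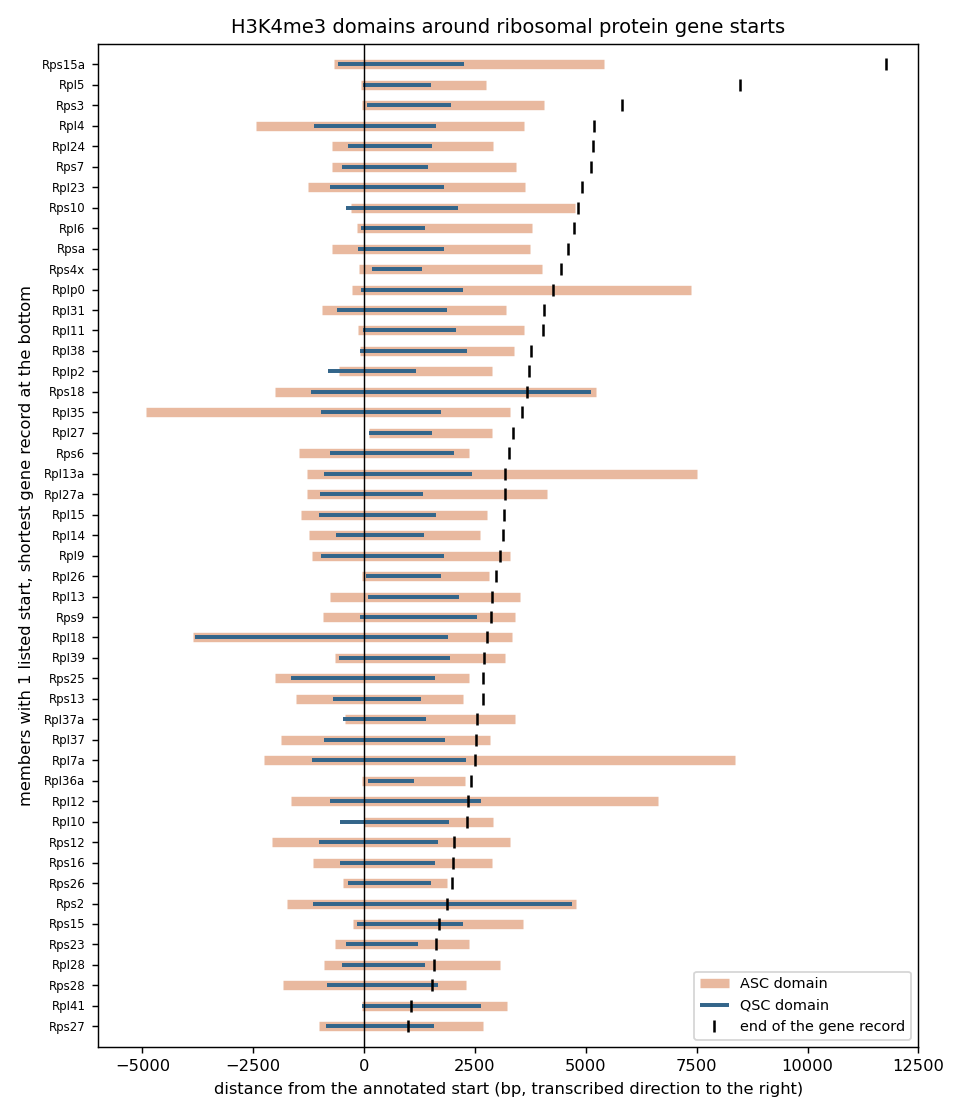
H3K4me3 domains of the 48 called members with a single listed start, as distance from that start (bp, transcribed direction to the right), ordered by the distance to the end of the gene record; wide pale bars are ASC, narrow dark bars QSC, and ticks mark the record's end. The pale bars run past the dark bars mainly to the right, and in 23 of 48 genes they pass the tick.

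The large and small subunits had similar medians, though no test of a difference was made. Role groups, some of a single gene, ran from a log2 ratio of 0.46 at Rps6 to 1.28 at Rpl12. The large subunit had a median log2 ratio of 0.94 over 46 genes and the small subunit 0.89 over 31, with ASC medians of 4155 and 4108 bp. The stalk, where the GTPase factors of translation bind, comprises Rplp0 and the acidic proteins Rplp1 (2137 bp in QSC, 4172 bp in ASC) and Rplp2 (1990 and 3439 bp). Rpl12, at its base, had 3411 and 8281 bp (log2 ratio 1.28, or 0.55 without joining and 0.18 with joining over 3 kb). For Rplp2 joining over 3 kb gave 2.07 in place of 0.79. Rpl5 and Rpl11 bind the 5S ribosomal RNA and, when free, inhibit Mdm2, and had 1520 and 2819 bp and 2115 and 3738 bp.

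Rps6, the substrate of the S6 kinases downstream of mTOR, had 2797 and 3843 bp (log2 ratio 0.46). Rps27a, made as a fusion with ubiquitin, had 2079 and 3853 bp, and Rpsa, also known as the laminin receptor, 1949 and 4468 bp. In people, loss of a copy of a Diamond-Blackfan anaemia gene impairs red cell production. The 12 members listed as such genes, a list that need not be complete, had ratios from 0.33 at Rps26 to 1.08 at Rps7. Their median was 0.82. Rps19, the first of these to be known, had 3396 and 4716 bp. Rps20, Rps10 and Rps3, which are tagged with ubiquitin when ribosomes collide, had 1659 and 3334 bp, 2538 and 5046 bp, and 1901 and 4108 bp. At Rpl4, which lines the exit tunnel, the lengths were 2754 and 6057 bp.

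Small nucleolar RNA genes, whose products guide modification of ribosomal RNA, lay inside the records of 29 members (35.8%) and of 1.70% of all coding genes. All 29 hosts were called in both lists. Their median log2 ratio was 1.01, against 0.82 for the 48 called members without such a gene. Rpl13a held 4 of them (Snord32a, Snord33, Snord34 and Snord35a), and Rpl12 held Snora65.

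Few ribosomal protein gene starts carried H3K27me3, as was the case for other genes with strong H3K4me3. The call needed 500 bp or more of a start's window inside broad peaks. Calls numbered 4 of 81 in QSC (Rpl3l, Rpl32l, Rpl17 and Rpl22) and 3 in ASC (Rpl3l, Rpl17 and Rpl22), against 24.9% and 30.0% of coding genes. The nearest broad H3K27me3 peak lay a median of 6395 bp from the start in QSC and 8736 bp in ASC, where all coding genes had 3419 and 3058 bp. Coding genes with a QSC H3K4me3 rank in the members' interquartile range were close to the members, with calls at 42 and 84 of 1758 and median distances of 7336.5 and 8724 bp. The 77 members with H3K4me3 had 2 calls in each list and median distances of 7439 and 8736 bp. Small-subunit members had no call in either list. The counts depend on the window, since windows of 2500 bp gave 19 members in each list against 39.2% and 43.8% of coding genes.

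Rpl3l, the striated muscle paralog, had the widest coverage, though by weak peaks. The windows of both its listed starts were covered over all 2001 bp in both lists, by a QSC broad peak of 7515 bp (chr17:24726436-24733950, fold 2.46) and an ASC broad peak of 8448 bp (chr17:24725703-24734150, fold 2.13). It was also the single member called from the narrow H3K27me3 lists, which covered 1364 bp in QSC and 1367 bp in ASC. It was not called in either state from broad peaks with a fold of at least 3, where Rpl17 was called in both and Rpl22 in ASC. Rpl32l was covered over 1805 bp in QSC and 0 bp in ASC, by a peak of 5874 bp with a fold of 2.04 and a -log10 q of only 0.63. Rpl10l and Rpl39l had neither mark at the start.

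Rpl22 and Rpl17 carried H3K4me3 as well. Rpl22 has 2 listed starts. The upstream start had 581 bp of H3K27me3 in QSC and 1562 bp in ASC, with an H3K4me3 peak of fold 3.63 in QSC and no call in ASC. Most of the QSC coverage came from an H3K27me3 peak of 530 bp with a fold of 1.86 and a -log10 q of only 0.36. In ASC the H3K27me3 peak had a fold of 4.22 and a -log10 q of 8.66. The downstream start carried the strong H3K4me3 peak (fold 16.7 in QSC, 39.9 in ASC) and only 141 and 272 bp of H3K27me3. At Rpl17, which has no listed start, 982 and 1219 bp around an end of the record were covered, by peaks of 7358 and 7912 bp that lay mostly outside it, and the H3K4me3 domain began within the record in both lists.

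Other called members had some H3K27me3 in the window, under the 500 bp limit. Nearest to that limit was Rpl5 with 493 bp in ASC (226 bp in QSC), and Rpl34 had 480 bp in QSC and 300 bp in ASC. Rpl26 had 226 and 311 bp, and Rpl38 0 and 325 bp. At these 4 genes the broad peak lay upstream and ended before the start. Both marks were called in the window of the same start or record end at Rpl17 and Rpl22 in QSC and at Rpl17 in ASC. The shares over coding genes were 5.09% and 9.91%. In these 3 cases the marks did not overlap. At Rpl17 the H3K27me3 peak ended at 74998959 in QSC and 74999196 in ASC, and the H3K4me3 domain began at 74999923 and 74999699. At Rpl22 in QSC these positions were 152324866, for the weak H3K27me3 peak, and 152325308. The upstream start of Rpl22 lies at 152324436, before this H3K4me3 domain, and the downstream start at 152325726 lies inside it.

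Other parts of the protein-making machinery, and the protein-degrading proteasome, were called about as completely, and their domains too were longer in ASC. All 7 ribosomal proteins with other symbols, Fau and Rack1 among them, were called in both lists, with a median log2 ratio of 1.04. So were 78 of 78 mitochondrial ribosomal proteins (0.78), 32 of 32 ribosome biogenesis genes (0.63) and 14 of 14 other genes known for a terminal pyrimidine tract, such as the elongation factor Eef2 (0.84). Of 39 proteasome subunits 36 were called in both lists (0.87), and of 56 translation initiation factors 52 (0.64). The domain was longer in ASC at each gene of these 6 lists that was called in both, against 90.8% of all genes so called. Some initiation factors stand in more than 1 list. Median ranks were lower than the members' in all of them, from 67.1 in QSC and 79.6 in ASC for mitochondrial ribosomal proteins to 88.7 and 93.8 for the ribosomal proteins with other symbols.

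**Figure D4:**
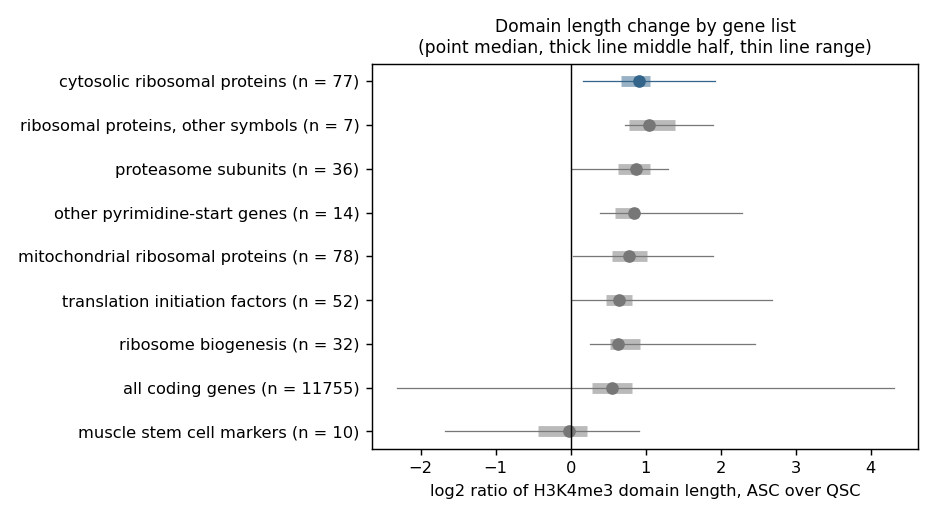
Log2 ratio of H3K4me3 domain length, ASC over QSC, by gene list; points are medians over the genes called in both lists, thick lines the interquartile range, thin lines the range, and n the number of genes. The ribosomal protein genes have a median of 0.91 and all coding genes 0.54, and each of the 6 lists of the protein-making and protein-degrading machinery lies between 0.63 and 1.04.

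Marker genes bear on what the cells were. All 10 muscle stem cell markers, Pax7 and Myf5 among them, carried H3K4me3 in both lists, with a median log2 ratio of -0.03. Immune markers had 0 of 7 in both lists. The other counts in QSC and ASC were 0 and 1 of 5 for myofibre, 2 and 3 of 6 for endothelial, 0 and 2 of 4 for fibroblast, 4 and 2 of 6 for pericyte and smooth muscle, and 1 and 1 of 3 for Schwann markers. The part of other cells in the members' domain lengths was not tested.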

How the data were processed

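Per the submitters' processing notes, the tools included MACS2 2.1.1, Bowtie2 2.3.2, bedtools 2.26.0 and Trimmomatic 0.36, and the build was mm10. The sources used here give neither tool settings nor read depth, so the precision behind a peak edge is unknown. The authors deposited 8 peak lists, narrow and broad for each state and mark, with a score, a fold (linear ratio) against background, the -log10 of p and of q, and for narrow peaks the summit position. Narrow lists gave H3K4me3 and broad lists H3K27me3. Lists were read with Python 3.11.15 and pandas 2.3.3, and the calling functions were tested on simulated peaks.

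Starts came from the RefSeq table of GRCm38.p6, which matched 17492 of 21887 coding genes; for the others both ends of the record were used. Windows were 1 kb each side, with an overlap of at least 1 bp for H3K4me3. The members and the gene lists were chosen with earlier results of these data known. Named genes are the members without a call, those with H3K27me3, the 5 highest and 5 lowest by rank, length and length ratio, and fixed role groups. Other members were named with their values in view, and some genes that the rule names are not reported here. Counts and medians are set beside those of all coding genes, with no test. Results were recomputed under 15 alternative settings and 2 more that were chosen after seeing the data.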

Additional observations from a re-analysis of the deposited data

How the results depend on the processing

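No paired analysis was possible because the replicates of a group share 1 peak list, and for the same reason no replicate could be left out. The members' median log2 ratio of domain length was between 0.48 (broad lists) and 0.93 (single peaks without merging). Of 124 summary values, 108 stayed within 1.5 times the reported one, with length ratios compared as plain ratios and not as log2 values. With broad H3K4me3 lists (184538 peaks in QSC, 29297 in ASC) median lengths were 5230 and 7807 bp. Rpl3l was called in QSC only (1 member), from a peak of fold 1.60 and -log10 q of 0 that lay 608 bp from the start. Broad H3K4me3 shares over coding genes were 68.3% (QSC) and 62.7% (ASC), and the share for QSC only is not given. The domain was longer in ASC at 60 members and shorter at 17. The log2 ratio was -0.034 at Rpl12, -0.15 at Rpl41, -0.017 at Rplp2, and -0.38 at Rps18 and Rps2. All coding genes had a median of 0.18 with the broad lists. With lists of equal covered bases the domain was longer in ASC at 77 of 77, and with peaks joined over 3 kb or both ends of each record at 76 of 77. The cause of these differences was not tested. With windows of 500 bp or an overlap of 200 bp, Rpl17 was called in ASC only (1 member). H3K4me3 shares over coding genes were 53.8% (QSC) and 56.3% (ASC) with these windows, and 54.2% and 56.8% with this overlap. With both ends of each record, Rpl22 was called in QSC only (1 member), and H3K27me3 calls in ASC were 6, against 34.3% of coding genes. H3K27me3 calls in QSC were 0 at a -log10 q of at least 5, where only 0.20% of coding genes were called, so this count says little about the members. At a fold of at least 3 there was 1 call in QSC (3.82% of coding genes), and with 1000 bp covered there were 2 (20.7%). With 1 bp covered, 8 members were called in each state, against 30.3% of coding genes in QSC and 35.5% in ASC. Narrow lists gave 1 call in each state, against 7.93% and 13.7%. Windows of 2500 bp gave 19 in each, where 39.2% and 43.8% of coding genes were called. Read depth, which limits where a peak ends, is unknown.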
